A study of Mus musculus with 6 samples.

Results

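The genes described here are those that build cholesterol and fatty acids and those that move or sense cholesterol. They were chosen by name from 39 listed symbols, and 35 of them were measured among 12393 genes in all. Of these, 18 belong to sterol synthesis, 8 to fatty acid synthesis, 5 to uptake and efflux and 4 to the regulators. Acat2, Soat1, Insig1 and Nr1h2 are not analysed here. Among the probe sets that carry a gene's symbol alone, the brightest on average stands for the gene. In 9 of the 35 genes at least 1 array read below the highest background control of that array.

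Gene expression was measured in CD4-CD8- double-negative (DN) cells, the fraction that holds the earliest T-cell precursors, from C57BL/6 mouse fetal thymus lobes taken at day 15 of gestation and cultured for 6 days, to an age of dpc 21. The medium held 10 nM TCDD (2,3,7,8-tetrachlorodibenzo-p-dioxin), which activates the aryl hydrocarbon receptor (AHR), or the solvent dioxane, given as 0.1% by volume in the thymocyte labels alone. There were 2 arrays of emigrants with TCDD and 1 of thymocytes with TCDD, against 2 of emigrants with dioxane and 1 of thymocytes with dioxane. Emigrants are DN cells recovered from buffer flushed off the lobes, thymocytes are DN cells from inside them, and each array held RNA of pooled cells, with a stated sorting purity over 95%. Since the labels number the emigrant arrays, TCDD and dioxane could be set side by side in 3 pairs, which are the thymocytes, emigrant set 1 (both arrays with the number 1) and emigrant set 2. Nothing in the labels tells whether equal arrays stem from different cultures, and the p-values therefore reflect array-to-array spread that may be technical.

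All values are robust multi-array average (RMA) signals on the log2 scale, on which 1 unit is a 2-fold difference. Array medians lay between 4.84 and 4.88. The highest of the Bacillus control probe sets, which have no target in mouse RNA, read 4.32 to 4.92, and signals lower than the one on the same array are at background level. The median of 7 AHR target genes was higher with TCDD by 3.62 in thymocytes, 0.25 in emigrant set 1 and 2.14 in emigrant set 2. All 7 were higher in thymocytes (51.5% of all genes) and in emigrant set 2 (45.3%). In emigrant set 1, 4 were higher (48.2%) and 3 lower (51.8%), with 2 of the 7 at or under the highest control on the TCDD array. The DN2 and DN3 T-lineage markers were above the highest control in 10 of 11 with TCDD and 11 of 11 with dioxane in thymocytes, in 6 and 8 of 11 in emigrant set 1, and in 9 and 11 of 11 in emigrant set 2. Of all 12393 genes, 3778 with TCDD and 4649 with dioxane were at or under the highest control in thymocytes. The same counts were 5285 and 3237 in emigrant set 1, and 3661 and 4021 in emigrant set 2. All 13 macrophage and dendritic markers were above the highest control on each emigrant array, and 12 of 13 were on each thymocyte array. Their summed linear signal was 12940 to 20880 in TCDD emigrants and 5642 to 19120 in dioxane emigrants, against 2479 in TCDD thymocytes and 1497 in dioxane thymocytes. In bulk samples such as these, fewer cells of a type and less RNA per cell cannot be told apart.

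Cells make cholesterol from acetyl-CoA through mevalonate, farnesyl and squalene intermediates and then a series of sterol rings. When sterols run low, SCAP carries the SREBP transcription factors (Srebf1, Srebf2) to the Golgi, where they are cut and released to switch on these enzymes and those of fatty acid synthesis. When sterols are plentiful, the liver X receptors (Nr1h2, Nr1h3) induce the exporters Abca1 and Abcg1. Dividing lymphocytes draw on both synthesis pathways to build membranes.

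The first comparison asked how the pathway genes read with TCDD against dioxane in each pair of arrays. Sterol synthesis genes read lower with TCDD in thymocytes and in emigrant set 2, and about level in emigrant set 1. In thymocytes 15 of 18 were lower (48.5% of all genes were), with a median difference of -0.55. In emigrant set 2, 15 of 18 were lower (54.7% of all genes), with a median of -0.83, and in emigrant set 1 the count was 10 of 18 (51.8% of all genes) with a median of -0.06. The medians over all genes were 0.01, -0.02 and -0.02 in thymocytes, emigrant set 1 and emigrant set 2. At least 2-fold lower signals were read by 5 of 18 sterol genes in thymocytes (2.79% of all genes), by 0 of 18 in emigrant set 1 (2.56%) and by 7 of 18 in emigrant set 2 (2.16%). At least 2-fold higher signals were read by 0 of 35 members in thymocytes (2.83% of all genes), 1 in emigrant set 1 (Dhcr7; 3.66%) and 1 in emigrant set 2 (Abca1; 3.43%). Any higher value was read by 8 of 35 members in thymocytes (51.5% of all genes), 16 in emigrant set 1 (48.2%) and 7 in emigrant set 2 (45.3%). Fatty acid synthesis genes had medians of -0.65 in thymocytes, -0.17 in emigrant set 1 and -0.79 in emigrant set 2. The linear signal summed over the 18 sterol genes was 3201 with TCDD and 5807 with dioxane in thymocytes, 1838 and 1933 in emigrant set 1, and 2234 and 5350 in emigrant set 2.

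No member passed the test over both cell sources. With limma, 3 TCDD arrays against 3 dioxane arrays and cell source in the model, 0 of 12393 genes had an adjusted p under 0.05 (0.0% of all genes), and the smallest adjusted p was 0.483. At an unadjusted p under 0.05 there were 659 genes. The members among them were Lbr, Lss, Cyp51 and Fads2 on the lower side (4 of 35, against 2.63% of all genes) and Ebp, Npc2 and Abca1 on the higher side (3 of 35, against 2.69%). The fit of the 4 emigrant arrays alone also called 0 genes (0.0%), with 255 at an unadjusted p under 0.05, of which Abca1, on the higher side (1.24% of all genes), was the only member, with 0 members on the lower side (0.815%). The differences below are therefore values with their errors, not calls. Over both sources the median estimate was -0.39 for sterol synthesis, -0.44 for fatty acid synthesis, -0.01 for uptake and efflux and -0.13 for the regulators, against -0.02 for all genes, and 31 of 35 members had a negative estimate (52.8% of all genes). The sterol and fatty acid medians were -0.83 and -0.77 without the dioxane emigrant array numbered 1 and -0.12 and -0.17 without the one numbered 2. The sterol median was -0.87 without both emigrant arrays numbered 1.

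**Figure D1:**
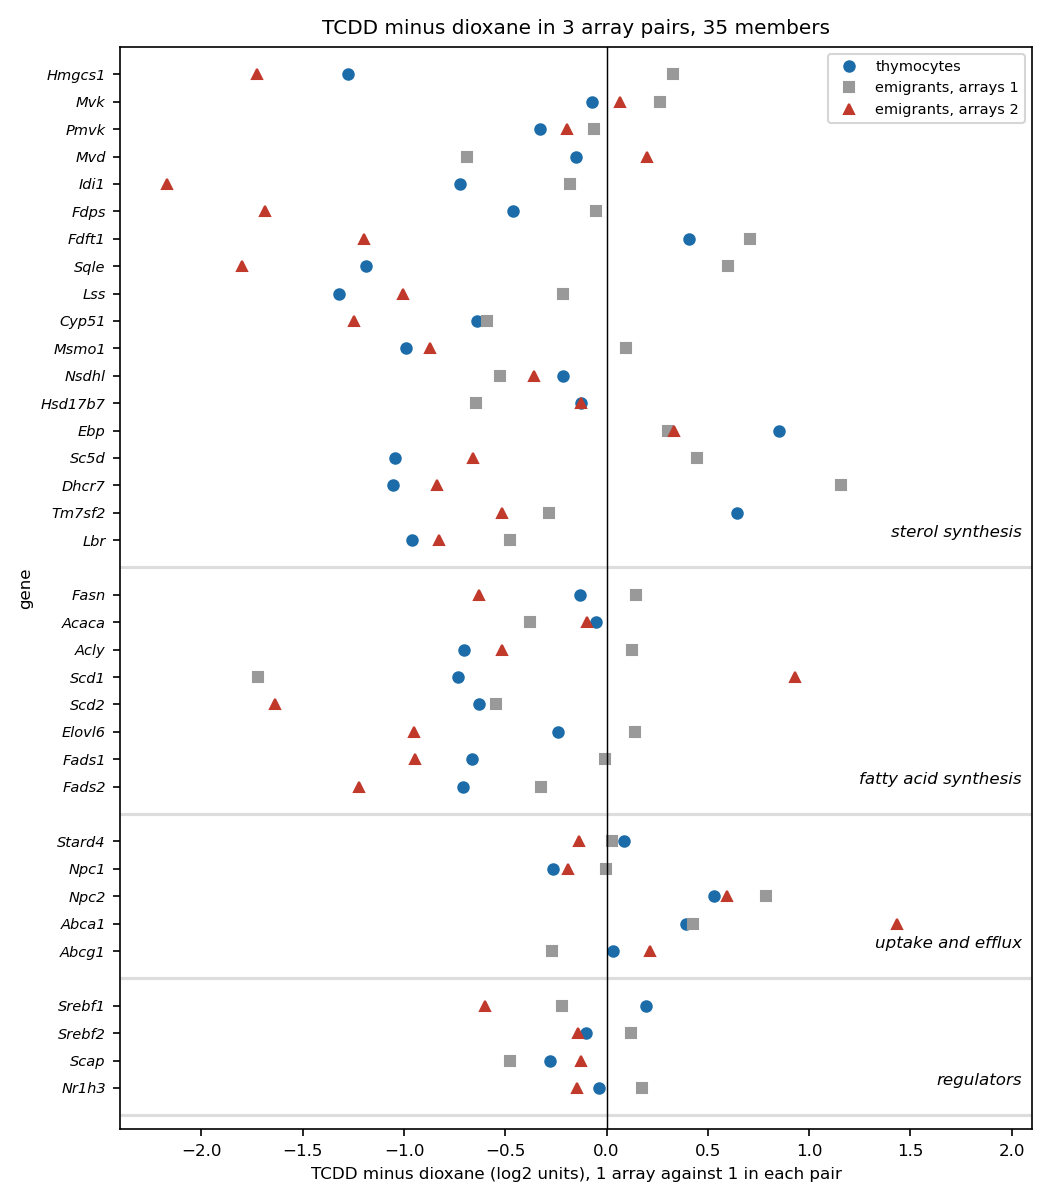
TCDD minus dioxane in log2 units (x axis) for each of the 35 members (rows, grouped by role), with a circle for the thymocyte pair, a square for emigrant set 1 and a triangle for emigrant set 2. Most sterol and fatty acid synthesis genes have the circle and the triangle left of 0 and the square nearer to it, whereas Npc2 and Abca1 have all 3 points right of 0.

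The early, mevalonate part of the pathway held both Idi1 and Hmgcs1, the sterol genes with the estimates furthest below 0, and several dim genes. Hmgcs1, the synthase that makes the substrate of the rate-limiting reductase, read 10.09 with TCDD and 11.36 with dioxane in thymocytes, 8.77 and 8.45 in emigrant set 1, and 9.48 and 11.20 in emigrant set 2. The dioxane arrays of thymocytes and of emigrant set 2 thus stood above the other 4. Over both sources Hmgcs1 differed by -0.89 ± 0.72 (SE, n = 3 per group), and its 4 probe sets were all lower on average. Idi1, which isomerises the isoprenoid building block, read 8.56 with TCDD and 9.28 with dioxane in thymocytes, 7.22 and 7.40 in emigrant set 1, and 7.12 and 9.29 in emigrant set 2. It was lower with TCDD in every pair, by -1.02 ± 0.49 over both sources, and its dioxane array numbered 1 overlapped the TCDD arrays. Its second probe set (mean level 5.70) differed by -0.54 in thymocytes, 0.88 in emigrant set 1 and -2.33 in emigrant set 2. Fdps, the farnesyl diphosphate synthase, read 5.13 and 5.59 with TCDD and dioxane in thymocytes, 4.66 and 4.71 in emigrant set 1, and 5.28 and 6.96 in emigrant set 2. Its value of 4.66 lies under the highest control of its array, and its second probe set, with a mean level of 2.97, differed by 0.02. Single arrays weighed on all 3. Without the dioxane emigrant array numbered 2, Hmgcs1 differed by -0.16, Idi1 by -0.44 and Fdps by -0.053, and without the one numbered 1, Hmgcs1 differed by -1.73 and Fdps by -1.34. The kinases and decarboxylase of the mevalonate steps, Mvk, Pmvk and Mvd, stayed between 4.51 and 5.66 on all 6 arrays, close to the controls, and differed by 0.09, -0.20 and -0.21.

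From squalene onward the enzymes split. Sqle, the squalene epoxidase, differed by -1.19 in thymocytes, 0.60 in emigrant set 1 and -1.80 in emigrant set 2, so that the pairs ran in both directions. Fdft1, which joins farnesyl units into squalene, read 7.56 with TCDD and 7.15 with dioxane in thymocytes, 4.75 and 4.04 in emigrant set 1 (both under the highest control of their array), and 5.51 and 6.71 in emigrant set 2. Its difference over both sources was -0.03 ± 0.71. Lss, which closes the sterol rings, read 6.60 and 7.92 with TCDD and dioxane in thymocytes, 5.90 and 6.11 in emigrant set 1, and 5.92 and 6.93 in emigrant set 2. It was lower in every pair, by -0.85 ± 0.28 over both sources (limma adjusted p = 0.873), although 1 of its 3 probe sets, at a mean level of 4.31, differed by 0.15.

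Cyp51, the lanosterol demethylase, read 7.46 with TCDD and 8.10 with dioxane in thymocytes, 5.97 and 6.56 in emigrant set 1, and 6.38 and 7.63 in emigrant set 2. It was lower in every pair, by -0.83 ± 0.32 over both sources (limma adjusted p = 0.915). The TCDD thymocyte value lay above the dioxane value of emigrant set 1, so the groups overlapped. Without the dioxane emigrant array numbered 2 Cyp51 differed by -0.49. Of its other probe sets, with mean levels of 4.29 and 3.77, the first differed by -0.36 and the second by 0.07. Lbr, a sterol reductase of the inner nuclear membrane that also binds lamin B, read 8.22 with TCDD and 9.18 with dioxane in thymocytes, 8.39 and 8.87 in emigrant set 1, and 8.53 and 9.35 in emigrant set 2. It was the only sterol gene whose 3 TCDD arrays all lay below the 3 dioxane arrays (4.61% of all genes did), with a difference of -0.75 ± 0.20 (95% interval -1.24 to -0.26; limma adjusted p = 0.811). Ebp, the sterol isomerase that acts after demethylation, was the reverse case, with all 3 TCDD arrays above the dioxane arrays (3.47% of all genes). It read 7.17 to 7.37 with TCDD and 6.52 to 7.01 with dioxane, a difference of 0.50 ± 0.18 (limma adjusted p = 0.910).

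Of the 18 sterol genes, 8 were lower in all 3 pairs (17.4% of all genes) and 1, Ebp, was higher in all 3 (15.4%). The 8 were Pmvk, Idi1, Fdps, Lss, Cyp51, Nsdhl, Hsd17b7 and Lbr. Nsdhl and Hsd17b7, which remove a methyl group and reduce the ketone that is left, differed by -0.37 ± 0.18 and -0.30 ± 0.22. Msmo1, a sterol methyl oxidase, Sc5d, a sterol desaturase, and Dhcr7, the reductase of the final step to cholesterol, differed by -0.99, -1.04 and -1.06 in thymocytes and by -0.87, -0.66 and -0.84 in emigrant set 2. In emigrant set 1 they differed by 0.10, 0.45 and 1.16. In 5 of the 18 genes (Mvd, Fdps, Lss, Cyp51 and Hsd17b7) probe sets of the gene differed in sign on average over the 3 pairs. Probe sets of other genes differed within pairs. The second Sc5d probe set (mean level 4.87) differed by 0.29 in thymocytes, -0.41 in emigrant set 1 and 0.04 in emigrant set 2.

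Promoters of these genes were read for motifs that bear on the comparison. RefSeq windows (GRCm38.p6) from 250 bases before to 50 after an annotated start were found for 26 of the 35 members. The letters searched on both strands were GCGTG, the core of the AHR response element, TCACNCCAC, a sterol regulatory element bound by SREBP, and CCAAT, the box bound by NF-Y, a factor that acts beside SREBP at many lipid genes. CCAAT stood in at least 1 window of 15 of 15 sterol synthesis genes, in 2 of 5 fatty acid synthesis genes and in 42.3% of the 9887 measured genes with a window (41.1% of all 27025 genes). GCGTG stood in 14 of 26 members, that is 53.8%, against 50.2% of the measured genes and 35.2% of all genes. TCACNCCAC was matched in 1 member, Hmgcs1, against 1.5% of the measured genes and 1.44% of all genes. A match is a description of these letters and not a bound site.

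The windows of Hmgcs1 (chr13:119690101-119690400, plus strand), Cyp51 (chr5:4104648-4104947, minus strand), Idi1 (chr13:8885356-8885655, plus strand) and Lbr (chr1:181842352-181842651, minus strand) are shown. Of the sterol genes given array by array, the first 3 hold the most matches. Lbr, which has as many as Lss, was taken before it by alphabetical order. Capitals mark the 3 motifs on either strand, so ATTGG is CCAAT read from the other strand and CACGC is GCGTG. No matches overlap.
Hmgcs1: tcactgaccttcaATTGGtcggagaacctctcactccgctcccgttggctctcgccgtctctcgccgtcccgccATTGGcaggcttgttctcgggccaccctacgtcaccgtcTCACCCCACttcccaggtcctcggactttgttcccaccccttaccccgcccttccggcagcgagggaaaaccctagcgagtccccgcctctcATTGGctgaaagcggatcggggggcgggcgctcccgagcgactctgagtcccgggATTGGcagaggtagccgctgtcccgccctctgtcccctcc
Cyp51: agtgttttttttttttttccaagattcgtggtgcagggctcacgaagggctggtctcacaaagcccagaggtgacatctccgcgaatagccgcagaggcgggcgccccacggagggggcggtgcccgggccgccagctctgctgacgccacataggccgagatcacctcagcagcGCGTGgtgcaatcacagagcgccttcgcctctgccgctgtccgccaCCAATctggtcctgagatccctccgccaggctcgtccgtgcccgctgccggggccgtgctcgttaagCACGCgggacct
Idi1: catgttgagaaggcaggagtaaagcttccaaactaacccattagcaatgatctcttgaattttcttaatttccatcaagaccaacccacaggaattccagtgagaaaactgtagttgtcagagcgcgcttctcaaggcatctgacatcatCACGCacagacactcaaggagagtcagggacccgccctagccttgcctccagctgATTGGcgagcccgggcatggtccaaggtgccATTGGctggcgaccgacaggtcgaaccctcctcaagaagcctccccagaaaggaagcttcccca
Lbr: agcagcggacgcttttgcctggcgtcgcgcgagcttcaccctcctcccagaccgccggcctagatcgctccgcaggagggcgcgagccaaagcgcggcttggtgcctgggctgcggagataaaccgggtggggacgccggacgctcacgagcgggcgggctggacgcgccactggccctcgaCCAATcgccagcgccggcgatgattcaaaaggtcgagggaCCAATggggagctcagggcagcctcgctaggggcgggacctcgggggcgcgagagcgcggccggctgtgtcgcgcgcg

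The Hmgcs1 window holds 1 sterol element, in the form TCACCCCAC, 137 bases before the annotated start and 4 CCAAT boxes. The Cyp51 window has 2 AHR cores and 1 CCAAT box, and the Idi1 window 1 AHR core and 2 CCAAT boxes. The Lbr window has 2 CCAAT boxes and neither of the other motifs.

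Lower values with TCDD were read by 8 of 8 fatty acid synthesis genes in thymocytes (48.5% of all genes), 5 of 8 in emigrant set 1 (51.8%) and 7 of 8 in emigrant set 2 (54.7%). These counts include Acaca, which was at background on all 6 arrays. Scd2, a stearoyl-CoA desaturase that makes monounsaturated fatty acids, read 10.29 with TCDD and 10.92 with dioxane in thymocytes, 7.95 and 8.50 in emigrant set 1, and 9.11 and 10.75 in emigrant set 2. It was lower in every pair, by -0.94 ± 0.65 over both sources, while its arrays of 1 treatment spread more widely than that. Scd2 differed by -0.25 without the dioxane emigrant array numbered 2, by -1.54 without the one numbered 1 and by -0.56 without the TCDD emigrant array numbered 1. Fads1 and Fads2, the desaturases of polyunsaturated fatty acids, were also lower in every pair. Fads2 read 5.99 and 6.70 with TCDD and dioxane in thymocytes, 5.44 and 5.76 in emigrant set 1, and 4.70 and 5.92 in emigrant set 2, a difference of -0.75 ± 0.23 (limma adjusted p = 0.811). Fads1 read 7.03 with TCDD and 7.69 with dioxane in thymocytes, 6.79 and 6.80 in emigrant set 1, and 6.65 and 7.59 in emigrant set 2, and differed by -0.54 ± 0.25, or by -0.33 without the dioxane emigrant array numbered 2. For both, the dioxane emigrant array numbered 1 lay within the range of the TCDD arrays, and for Fads2 the one numbered 2 did too.

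The other fatty acid enzymes varied more. Scd1, the related desaturase, read 8.12 with TCDD and 8.85 with dioxane in thymocytes, 3.98 and 5.70 in emigrant set 1, and 8.68 and 7.75 in emigrant set 2. Its pairs point in different directions, the value of 3.98 lies under the highest control of its array, and its difference was -0.51 ± 1.27. Acly, which makes cytosolic acetyl-CoA from citrate, Fasn, the fatty acid synthase, and Elovl6, a fatty acid elongase, differed by -0.37 ± 0.24, -0.21 ± 0.27 and -0.35 ± 0.41. All 3 were lower in thymocytes and in emigrant set 2 and higher by 0.13, 0.14 and 0.14 in emigrant set 1. The second-brightest Acly probe set (mean level 6.77) differed by -1.08 in thymocytes, -0.33 in emigrant set 1 and -0.63 in emigrant set 2. A dimmer Acly probe set, at a mean level of 3.17, was higher by 0.42 in emigrant set 1. Acaca, the carboxylase that commits acetyl-CoA to fatty acids, read under the highest control on all 6 arrays and gives no usable difference.

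**Figure D2:**
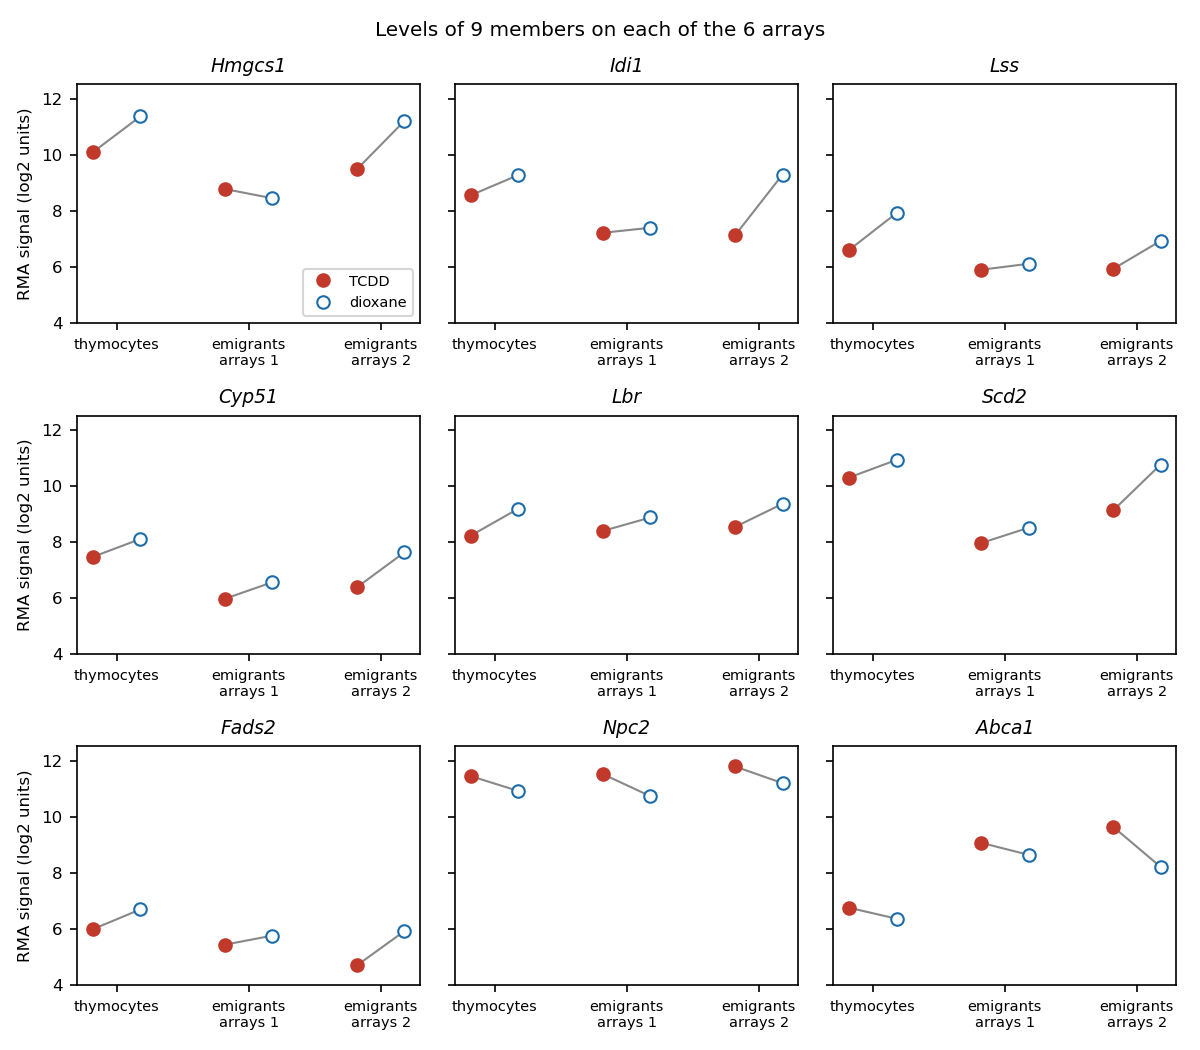
RMA signal in log2 units (y axis, starting at 4) of 9 members on each of the 6 arrays, with TCDD (filled) left of dioxane (open) in each pair and a line joining the pair. The 5 sterol genes and Scd2 read highest on the dioxane arrays of thymocytes and of emigrant set 2, Fads2 did not, and Npc2 and Abca1 read higher with TCDD in every pair.

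Of the 5 genes of cholesterol movement, 2, Npc2 and Abca1, were higher with TCDD in all 3 pairs (15.4% of all genes) and 1, Npc1, was lower in all 3 (17.4%). For Npc1 that was by -0.003 in emigrant set 1, and 4 of its values were under the highest control. Npc2, which carries cholesterol out of the lysosome, read 11.44 with TCDD and 10.91 with dioxane in thymocytes, 11.51 and 10.73 in emigrant set 1, and 11.79 and 11.19 in emigrant set 2. All TCDD arrays lay above all dioxane arrays (3.47% of all genes did), with a difference of 0.64 ± 0.20 (95% interval 0.15 to 1.12; limma adjusted p = 0.811), and its second probe set differed by 0.63. Abca1, the exporter that loads cholesterol onto lipoproteins, read 6.75 and 6.36 with TCDD and dioxane in thymocytes, 9.07 and 8.64 in emigrant set 1, and 9.64 and 8.21 in emigrant set 2, a difference of 0.75 ± 0.25 (limma adjusted p = 0.873). Its other probe sets, both with a mean level under 4.32, differed by 0.07 and 0.29. Macrophages express both genes, and the median of the 13 macrophage and dendritic markers was higher with TCDD by 0.03 in thymocytes, 0.09 in emigrant set 1 and 1.83 in emigrant set 2. The summed linear signal of these markers was 2479 with TCDD and 1497 with dioxane in thymocytes. It was 20880 and 19120 in emigrant set 1, and 12940 and 5642 in emigrant set 2. The part of macrophages in the 2 differences was not tested.

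Abcg1, the companion exporter, differed by -0.01 ± 0.19 and Stard4, a cytosolic sterol carrier, by -0.01 ± 0.25. Stard4 read 8.44 with TCDD and 8.35 with dioxane in thymocytes, 7.00 and 6.97 in emigrant set 1, and 7.49 and 7.63 in emigrant set 2. Its second probe set, at a mean level of 6.07, was lower in all 3 pairs, by -0.43 on average. Npc1, the membrane partner of Npc2, read 3.89 and 4.15 with TCDD and dioxane in thymocytes and 3.73 on both arrays of emigrant set 1, all 4 under the highest control, and 4.67 and 4.86 in emigrant set 2.

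The regulators showed small differences at moderate or low signals. Srebf1 read 6.50 with TCDD and 6.31 with dioxane in thymocytes, 5.83 and 6.05 in emigrant set 1, and 6.43 and 7.03 in emigrant set 2, a difference of -0.21 ± 0.34. Srebf2, which mainly drives the sterol genes, read 5.69 and 5.80 with TCDD and dioxane in thymocytes, 5.93 and 5.81 in emigrant set 1, and 5.59 and 5.73 in emigrant set 2. Its difference of -0.04 ± 0.16 has a 95% interval of -0.45 to 0.37. Scap, the escort of SREBP, read 6.47 with TCDD and 6.76 with dioxane in thymocytes, 5.40 and 5.88 in emigrant set 1, and 6.13 and 6.26 in emigrant set 2, and differed by -0.30 ± 0.25. That was -0.086 without TCDD emigrants numbered 1, -0.50 without TCDD emigrants numbered 2 and -0.19 without dioxane emigrants numbered 2. Nr1h3 read 4.14 to 4.58 on the 6 arrays, with 4 of the values under the highest control. Activity of these factors depends on protein processing or ligands, which the arrays do not measure.

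The second question was how the same genes differed between the emigrant arrays themselves. With dioxane, sterol synthesis genes read lower in number 1 than in number 2 in 16 of 18 (46.2% of all genes), with a median of -0.90, and 8 of 18 were at least 2-fold lower (7.83% of all genes). For fatty acid synthesis the count was 7 of 8, with Acaca, at background, among the 7, and the median was -0.85. With TCDD the same difference was smaller, with medians of -0.26 and -0.27 for the sterol and fatty acid genes. In that comparison 25 of 35 members were lower in number 1 (47.2% of all genes) and 3 at least 2-fold lower (5.87%). The medians between the 2 dioxane arrays were thus about as far from 0 as those between TCDD and dioxane in emigrant set 2. Dioxane number 1 minus number 2 was -2.76 for Hmgcs1, -2.25 for Scd2, -2.25 for Fdps and -2.18 for Msmo1, while Fdft1 was at background on number 1. Across all 35 members, 15 had dioxane thymocytes and dioxane emigrant set 2 as their 2 highest arrays (8.53% of all genes), among them 9 sterol and 5 fatty acid synthesis genes. Acaca, at background on all 6 arrays, is 1 of these 5.

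T-lineage markers too read lowest in emigrant set 1, and proliferation genes did not. The 11 DN2 and DN3 T-lineage markers had medians of 8.47 with TCDD and 9.14 with dioxane in thymocytes, 5.00 and 5.56 in emigrant set 1, and 6.35 and 7.68 in emigrant set 2. Their median TCDD difference was -0.77, 0.13 and -0.90 in thymocytes, emigrant set 1 and emigrant set 2. That of 16 proliferation genes was -0.77, 0.01 and -1.12, but their median level was high in emigrant set 1 too, at 8.98 with TCDD and 9.14 with dioxane. Neutrophil markers, by contrast, had medians of 10.11 and 8.70 with TCDD and dioxane in emigrant set 1, 6.60 and 5.64 in emigrant set 2, and 5.12 and 4.87 in thymocytes. Of these markers, 10 of 10 were above the highest control on each emigrant array, and 9 with TCDD and 8 with dioxane in thymocytes. Their summed linear signal was 2737 to 16920 in TCDD emigrants and 870.3 to 9777 in dioxane emigrants, against 397.9 in TCDD thymocytes and 445.6 in dioxane thymocytes. RNA quality, read as the signal gap of the actin 3' and 5' control probe sets, came to 4.15 with TCDD and 3.48 with dioxane in thymocytes, 3.77 and 3.06 in emigrant set 1, and 3.36 and 3.01 in emigrant set 2. The same gap for Gapdh was 5.86 with TCDD and 6.10 with dioxane in thymocytes, 5.60 and 4.75 in emigrant set 1, and 4.75 and 4.69 in emigrant set 2. Erythroid markers had a summed linear signal of 716.2 with TCDD and 1159 with dioxane in emigrant set 1 and of 154.3 to 178.0 on the other 4 arrays. Medians of the gamma-delta T and stroma lists differed by 1.00 and 0.08 in thymocytes, 0.05 and 0.16 in emigrant set 1, and 0.31 and 0.19 in emigrant set 2. The part of cell composition, proliferation or RNA quality in the lipid gene differences was not tested.

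**Figure D3:**
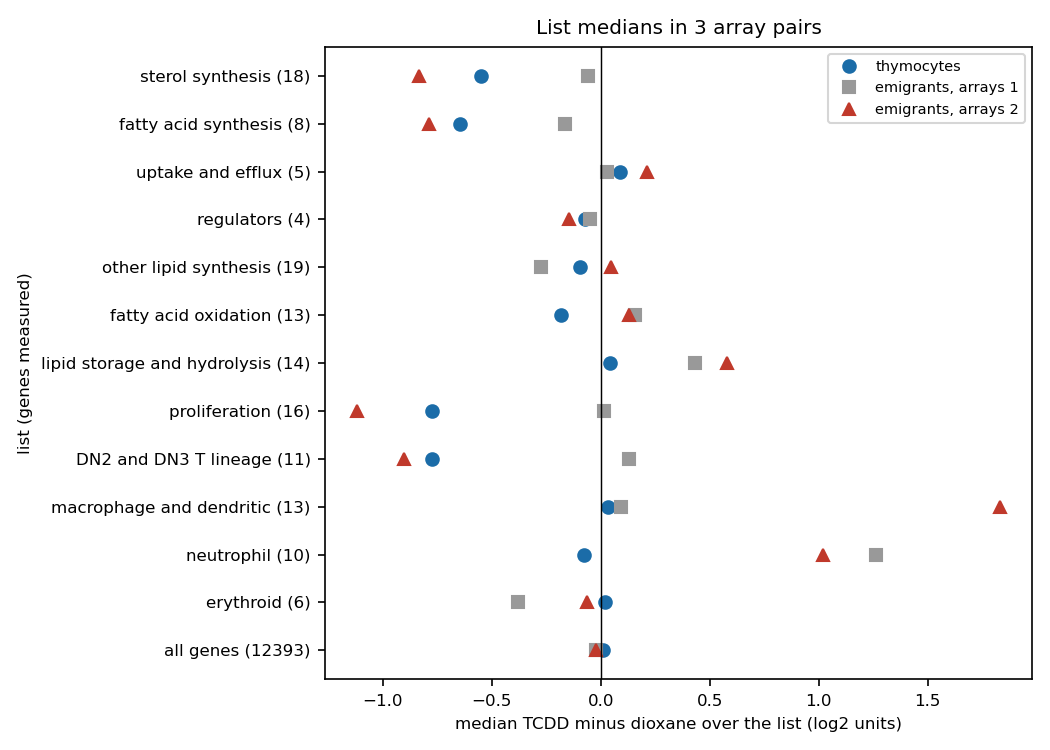
Median TCDD minus dioxane in log2 units (x axis) over each list (rows, with the number of genes measured), with a circle for thymocytes, a square for emigrant set 1 and a triangle for emigrant set 2. Sterol synthesis, fatty acid synthesis, proliferation and T-lineage lists have the circle and triangle left of 0 and the square near it, while all genes together sit at 0.01, -0.02 and -0.02.

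Further lipid genes did not share this pattern in their list medians. Of 19 other lipid synthesis genes, 6 were lower (17.4% of all genes) and 3 higher (15.4%) in all 3 pairs, and the pair medians were -0.09, -0.28 and 0.05 in thymocytes, emigrant set 1 and emigrant set 2. Their summed linear signal was lower with TCDD in each pair. It came to 5075 with TCDD and 6745 with dioxane in thymocytes. The emigrant values, in the same order, were 3789 and 5077 in set 1 and 4332 and 4984 in set 2. In 8 of the 19 genes at least 1 array read below the highest control, and in 10 the probe sets differed in sign on average over the pairs. In the limma fit over both sources none passed the test, and at an unadjusted p under 0.05 there were 1 lower (2.63% of all genes) and 2 higher (2.69%). These were Elovl5, an elongase of polyunsaturated fatty acids, at -0.52, -0.56 and -0.43 in the same pairs, and Elovl1, an elongase of very long chains, at 1.16, 0.45 and 0.86. The last was Insig2, which retains SCAP in the endoplasmic reticulum, at 0.41, 0.79 and 0.29. The 13 fatty acid oxidation genes had medians of -0.18, 0.16 and 0.13. The 14 genes of lipid storage and hydrolysis had 0.04, 0.43 and 0.58, led by Plin2, a lipid droplet coat protein, at -0.11, 1.76 and 2.04. No gene of either list passed the limma test over both sources, where Plin2 alone had an unadjusted p under 0.05 on the higher side (2.69% of all genes). In the fit of emigrants alone, 3 storage genes were higher at an unadjusted p under 0.05 (1.24%) and none passed.

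The last comparison was that of emigrants with thymocytes (4 against 2 arrays, adjusted for treatment). Sterol genes had a lower estimate in emigrants in 13 of 18 (56.0% of all genes), with a median of -0.47, and fatty acid genes in 8 of 8, with a median of -0.74, while the median over all genes was -0.04. The 8 include Acaca, which was at background on all 6 arrays. Limma called 0 of 12393 genes (0.0%), with 880 at an unadjusted p under 0.05 and a smallest adjusted p of 0.165. Among members, 7 were lower at an unadjusted p under 0.05 (3.9% of all genes) and Abca1 alone was higher (3.2%). Abca1 averaged 8.89 in emigrants and 6.56 in thymocytes, a difference of 2.33 ± 0.26 (limma adjusted p = 0.320), and its 4 emigrant arrays all lay above both thymocyte arrays (5.46% of all genes did). So did those of 12 of 13 macrophage and dendritic markers and 6 of 10 neutrophil markers. The median differences of these lists were 2.596 and 2.709. For the 11 T-lineage markers the median was -1.685, and 5 had all emigrant arrays below both thymocyte arrays. The part of cell composition in the differences between emigrants and thymocytes was not tested.

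The 5 members whose emigrant arrays all lay below both thymocyte arrays (10.8% of all genes) were Fdft1, Nsdhl, Fads2, Stard4 and Scap. Stard4 averaged 7.27 in emigrants and 8.39 in thymocytes, a difference of -1.12 ± 0.26 (limma adjusted p = 0.452). Fdft1 averaged 5.25 in emigrants and 7.36 in thymocytes, a difference of -2.10 ± 0.75, with the values under background on arrays numbered 1 given above. Scap averaged 5.92 in emigrants and 6.61 in thymocytes, a difference of -0.70 ± 0.26. Hmgcs1 (-1.25 ± 0.77), Scd1 (-1.96 ± 1.35) and Scd2 (-1.52 ± 0.68) had large estimates with overlapping arrays. With the mean of the probe sets of each gene, Fdft1 was at -0.74, Hmgcs1 at -0.95, Scd1 at -1.18 and Scd2 at -0.62, while Stard4 was at -1.17. Without the dioxane emigrant array numbered 1 Hmgcs1 was at -0.62, and Scd1 was at -0.97 without the TCDD emigrant array numbered 1 and at -2.99 without the one numbered 2. Between dioxane emigrants numbered 2 and dioxane thymocytes, the medians of sterol and fatty acid genes differed by -0.16 and -0.19. Without both emigrant arrays numbered 1, the emigrant medians were -0.27 for sterol and -0.42 for fatty acid genes, and the sterol median was also -0.27 without the dioxane thymocyte array.

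**Figure D4:**
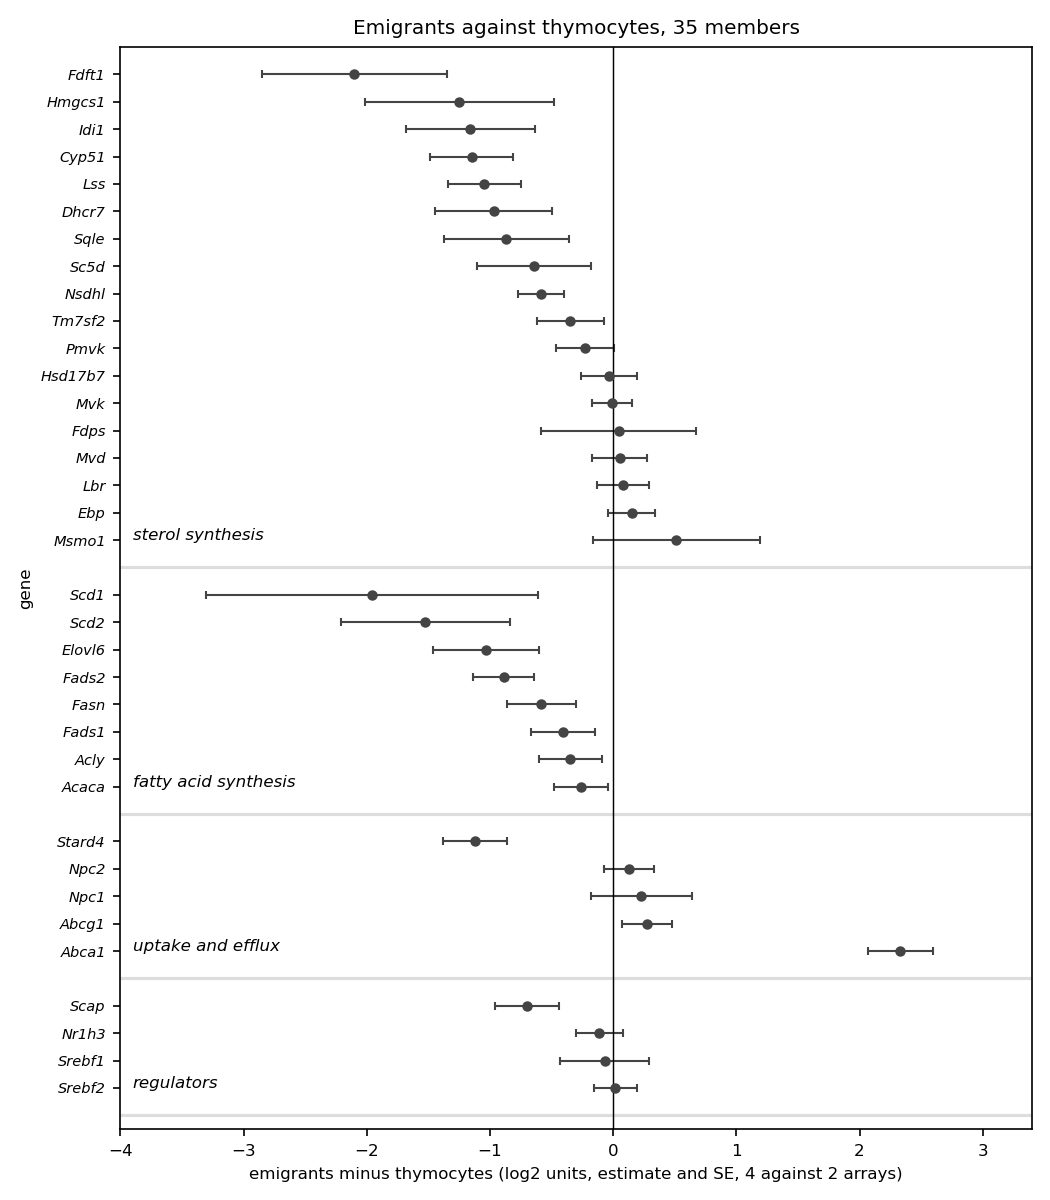
Emigrants minus thymocytes in log2 units (x axis; point and bar are the limma estimate and its SE, 4 against 2 arrays) for the 35 members, ordered by estimate within each role. Fatty acid genes, with Acaca at background, all lie left of 0, sterol genes range from Fdft1 at -2.10 to Msmo1 at 0.51, and among the members Abca1 stands apart at 2.33.

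Whether the TCDD difference itself differed between emigrants and thymocytes was tested with an interaction term. Limma called 0 of 12393 genes (0.0%), with 97 at an unadjusted p under 0.05, and members made up 0 of those on the lower side (0.331% of all genes) and 0 on the higher side (0.452%). The median over the sterol genes was 0.05 and over the fatty acid genes -0.09, and the median standard error over all genes was 0.50, against 0.21 for the TCDD difference over both sources.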

How the data were processed

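Affymetrix arrays measured pooled RNA of 6 samples. The values are log2 signals made by the authors with RMA, per the submitters' processing notes, with the affy package named in the series' design text (package version not given in the sources used here). The method borrows information between arrays and gives no detection calls, so low values are compressed toward background. The number of arrays limits the precision.

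Of 22690 probe sets, 20380 carried 1 gene symbol in the platform annotation and gave 12393 genes; 64 control probe sets, 691 with several genes and 1555 unnamed ones were left out. Where a gene had several, the one with the largest average signal stood for it. Tests used limma 3.58.1 (lmFit, eBayes) in R 4.3.3 on all genes, two-sided, with Benjamini-Hochberg adjustment and calls at an adjusted p under 0.05; the fit was checked on simulated data. Thymocyte pairs hold 1 array a side and have no test of their own.

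Alternatives were other normalisations, a level filter, a background floor, probe set means, an intensity trend in the limma variance, a replicate block and left-out arrays. The members and lists were chosen with earlier results of these data known. All-array values are given for members with the same sign in 3 pairs and a mean absolute difference of at least 0.5, for the 3 largest TCDD estimates and the 2 largest cell source estimates of each role; of other lists at most 3 genes with the smallest p are named. Members that the text describes beyond this, such as Ebp, were picked after their values were seen.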

Additional observations from a re-analysis of the deposited data

Results flagged for a closer look

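For 3 members TCDD minus dioxane had one direction in thymocytes and the opposite one in both emigrant pairs. Tm7sf2, a sterol reductase, differed by -0.28 and -0.51 in the emigrant pairs and by 0.64 in thymocytes, and the difference of effects, emigrants minus thymocytes, was -1.04 ± 0.40 (SE; limma adjusted p = 1.00). Srebf1 differed by -0.22 and -0.60 in the emigrant pairs and by 0.20 in thymocytes, a difference of effects of -0.61. Mvk differed by 0.26 and 0.07 in the emigrant pairs and by -0.07 in thymocytes, a difference of effects of 0.23. None of the 3 passed the interaction test in limma, and thymocytes had 1 array per treatment.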

How the results depend on the processing

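With 3 arrays a side and 1 thymocyte array per treatment, no setting gave a called gene for TCDD over both sources or for the interaction. A floor at the highest background control gave 3 genes called in emigrants and 11 for emigrants against thymocytes, Abca1 among these 11 at 2.33 (limma adjusted p = 0.0386). Over the other settings its limma adjusted p was 0.0942 to 1.00, apart from the intensity trend, where values of single genes were not kept. There the smallest limma adjusted p over all genes was 0.0613 for emigrants against thymocytes. With the mean of its probe sets Abca1 was at 0.80 (limma adjusted p = 0.481). Leaving out single arrays gave 0 to 7 genes called for emigrants against thymocytes, with 7 only without dioxane emigrant array 2. TCDD medians then ranged from -0.83 to -0.12 for sterol synthesis, -0.77 to -0.17 for fatty acid synthesis, -0.0265 to 0.19 for uptake and efflux and -0.27 to 0.0226 for the regulators. A filter at the median level gave -0.66 for sterol synthesis, 0.32 for uptake and efflux and -0.21 for the regulators, and means of probe sets gave -0.28 for fatty acid synthesis. With such means TCDD minus dioxane was -0.36 for Lss, -0.37 for Cyp51, -0.35 for Fdps, -0.45 for Scd2, -0.50 for Fads2 and 0.37 for Abca1. Without both emigrant arrays numbered 1 the medians were -0.87 for sterol synthesis and 0.12 for uptake and efflux. The cause of these shifts was not tested.

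Estimates of 7 members turned sign, none of them past the test, among them Scd1 at -0.51 and Srebf1 at -0.21. With the background floor Npc1 was 0.0503 and Nr1h3 0.065. With cyclic loess Stard4 was 0.0003 and Nr1h3 0.0229. With quantile normalisation Fdft1 was 0.0277, Stard4 0.0051 and Nr1h3 0.0123. Without both emigrant arrays numbered 1 Scd1 was 0.10 and Nr1h3, emigrants against thymocytes, 0.0272. Leaving out single arrays gave a range of -0.73 to 0.80 for Fdft1, -1.89 to 0.80 for Scd1, -0.18 to 0.19 for Stard4 and -0.49 to 0.15 for Npc1. It gave -0.43 to 0.13 for Srebf1, -0.15 to 0.0454 for Srebf2 and -0.13 to 0.12 for Nr1h3. With the emigrant numbers as a replicate block, 0 genes were called for TCDD in either fit and the sterol median was -0.39; deviations of same-numbered arrays correlated at 0.56 across genes, but with 2 pairs this does not show that the numbers pair the samples.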
